A study of Mus musculus with 229 samples.

Results

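The cells described here are 148 astrocyte-like cells of the postnatal mouse cerebral cortex, taken from a Drop-seq library of GFP-positive cells of the hGFAP-GFP strain. Each had at least 1 unique molecular identifier (UMI, a tag that marks 1 captured RNA molecule) for at least 3 of 8 astrocyte genes (Aqp4, Aldh1l1, Gja1, Slc4a4, Slc6a11, Grm3, Agt and Dio2). Each also had UMIs for at most 1 of 8 genes of dividing cells (Top2a, Mki67, Cenpf, Cenpa, Ube2c, Birc5, Ccnb1 and Cdk1). They made up 18.2% of the library's 815 cells (exact binomial interval 15.6 to 20.98%), and the single-cell groups of the whole series hold 15231 cells.

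Astrocytes are the glial cells that take up glutamate and potassium around synapses, tile the cortex in contact with its blood vessels, and supply neurons with lipids and metabolites. In rodents most cortical astrocytes are generated around birth, from radial glia and by local division of young astrocytes, and they mature over the following weeks. Their textbook markers are therefore transporters, metabolic enzymes and secreted proteins, together with transcription factors kept from the radial glia.

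The hGFAP-GFP pups were at postnatal days 5 to 6, and their cortices were dissociated and sorted for GFP and against the dead-cell dye 7-AAD. The labels give the genotype of this library as hGFAP normal with hGFAP-gfp, describe no transgene cassette, and do not name or number the animals. The label counts 2000 cells and the deposited table holds 815. The other single-cell groups are PDGFRa-GFP cortex by Drop-seq at postnatal days 1 to 3, C1 captures of hGFAP-GFP (P3 and P4/P6) and PDGFRa-GFP (P3 and P6) cortex, and mouse glioblastoma at dpi 25 and dpi 35. With 1 library and no named animals there is no replicate, so no difference below was tested. Each interval is exact, at 95.0%, and covers only the error of counting. The cells were chosen on RNA counts of this library, so every contrast with its other cells is a description of the chosen cells.

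The astrocyte-like cells held 693454 UMIs, with a median of 4011.5 per cell (range 1349 to 13738) and 1945.5 genes per cell. The 667 other cells held 3502570 UMIs, with a median of 4224 (1196 to 24937) and 1885 genes. No cell barcode was shared between the Drop-seq libraries.

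The 8 astrocyte genes of the rule were detected to unequal degrees. Slc4a4, a sodium bicarbonate cotransporter, had a UMI in 129 of the 148 cells, Gja1, the main gap junction protein of astrocytes, in 128, and Aqp4, the water channel of their end-feet, in 118. The GABA transporter gene Slc6a11 was seen in 100 cells, the glutamate receptor gene Grm3 in 95, the thyroid hormone deiodinase gene Dio2 in 81 and the folate enzyme gene Aldh1l1 in 79. Agt, which encodes angiotensinogen, was seen in 26. As counts per 1000000 summed UMIs (CPM), Aqp4 stood at 1005, Slc4a4 at 962, Gja1 at 787, Grm3 at 352, Slc6a11 at 317, Dio2 at 275, Aldh1l1 at 241 and Agt at 93.7. Among the 148 cells, 27 had exactly 3 of the 8 genes, 24 had 4, 32 had 5, 37 had 6, 27 had 7 and 1 had all 8. None of the 8 cycling genes had a UMI in 100 of them, and 48 had exactly 1.

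**Figure D1:**
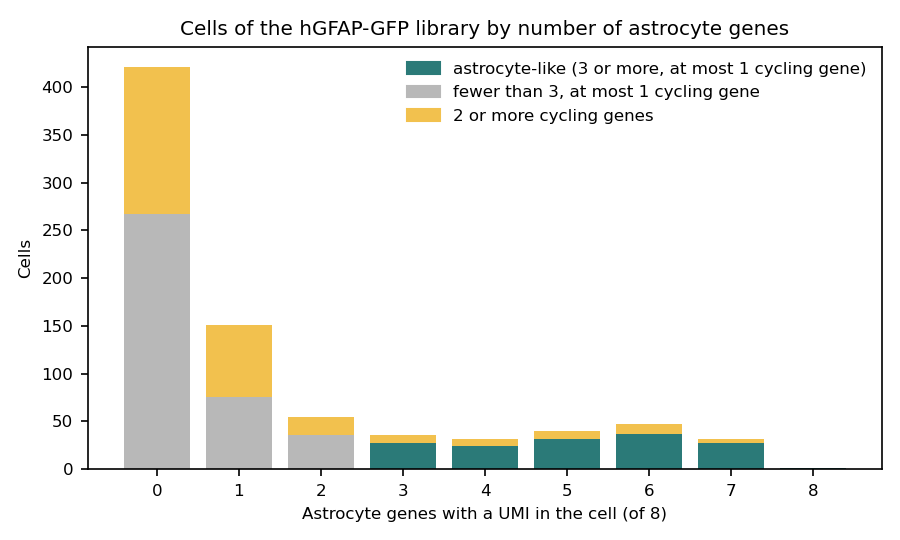
Cells of the hGFAP-GFP library (bar height) by how many of the 8 astrocyte genes had a UMI in the cell, coloured by whether the cell met the rule, had too few astrocyte genes, or had 2 or more cycling genes. Of the 815 cells 421 had none of the 8 genes, and the astrocyte-like cells spread over 3 to 8 genes with no gap at the threshold.

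Cells just inside and just outside the threshold differed by degree in astrocyte genes. The 27 cells with exactly 3 astrocyte genes had a median of 3516 UMIs, and the 36 cells with exactly 2 genes and at most 1 cycling gene had 3677. The glutamate transporter gene Slc1a3 stood at 2010 CPM inside and 893 outside, the glycolytic enzyme gene Aldoc at 952 and 455, and the lipid carrier gene Apoe at 3606 and 2415. Slc7a10, a transporter of serine, alanine and glycine, stood at 135 and 28.1 CPM. Dlx1, a transcription factor of interneurons, ran the other way at 9.6 CPM inside, which is 1 UMI of the 104000 there, and 191 outside.

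The label was checked against 30 astrocyte markers outside the rule. Of 8541 genes with at least 50 UMIs over both sets, 12.5% were at least 2-fold higher in the astrocyte-like cells than in the 667 other cells and 15.5% at least 2-fold lower, with a median log2 ratio of -0.08. Among the 27 markers that reached 50 UMIs, 26 were at least 2-fold higher, and their median log2 ratio was 3.07. S100b, a calcium-binding protein shared with the oligodendrocyte lineage, was the exception at 44.7 against 36.8 CPM (log2 ratio 0.28, interval -0.34 to 0.85). The cells thus carried the label's markers beyond the 8 that chose them, and these markers come from the same counts.

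Glutamate uptake genes were among the most widely detected. Slc1a3 (GLAST) had UMIs in 145 of 148 cells, and its level per 10000 UMIs of a cell ran from 0 through a median of 28.8 to 105, with the middle of the cells between 18.4 and 43.3. Summed, it stood at 3057 CPM against 326 in the other cells (log2 ratio 3.23, 3.12 to 3.33). After every cell was thinned to 1000 UMIs, Slc1a3 was found in 85.1% of the astrocyte-like cells, 17.5% of the others and 8.55% of the 421 cells with none of the 8 genes, whose median depth was 3757 UMIs. Slc1a2 (GLT-1) stood at 2248 against 223 CPM (3.33). Glul, the glutamine synthetase that turns the captured glutamate into glutamine, stood at 998 against 123 CPM (3.02).

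Of 15 measured genes of glutamate and GABA handling 13 were at least 2-fold higher, with a median log2 ratio of 2.80. They included Slc38a3, a glutamine exporter (427 against 51.96 CPM), Glud1, glutamate dehydrogenase (858 against 117 CPM), and the receptor gene Grm5 (242 against 31.98 CPM). Gria2, an AMPA receptor subunit, did not differ by 2-fold (486 against 504.5 CPM, log2 ratio -0.05), and neither did the GABA-degrading enzyme gene Aldh5a1 (31.7 against 15.99 CPM, 0.99).

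Genes that move ions and water were at least 2-fold higher for 11 of 13 measured members, with a median log2 ratio of 2.43. Atp1b2, a beta subunit of the sodium pump, stood at 320 against 38.3 CPM (3.06). Kcnj10, the Kir4.1 potassium channel, stood at 265 against 49.1 CPM (2.43). Mlc1 and Hepacam, which encode partners in a membrane complex of astrocyte end-feet, had log2 ratios of 2.94 and 2.41. Slc12a2, the NKCC1 cotransporter, and the potassium channel gene Kcnk1 were within 2-fold, at 0.60 and 0.23.

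In a list of gap junction, adhesion and surface receptor genes 4 of 7 measured members were at least 2-fold higher, with a median of 1.01. The 4 included the receptor genes S1pr1 and Ednrb, which bind soluble ligands and are not contact genes. S1pr1, a receptor for sphingosine phosphate, stood at 261 against 23.1 CPM (3.50) and Ednrb, the endothelin B receptor, at 1266 against 329 CPM (1.94). The cadherin gene Cdh2 was higher by less than 2-fold (480 against 249.5 CPM, 0.94), and the adhesion gene Ncam1 was not higher (249.5 against 293 CPM, -0.23).

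Lipid carriers were high in the astrocyte-like cells. Apoe, the main lipoprotein of the brain, had UMIs in all 148 cells and ran per 10000 UMIs from 1.53 through a median of 76.7 to 277. It stood at 7732 against 633 CPM (log2 ratio 3.61, 3.54 to 3.68). Of 12 measured genes of lipid carriage and uptake 10 were at least 2-fold higher, with a median of 2.59. Clu, the carrier protein clusterin, stood at 591 against 55.7 CPM (3.41), and Lcat, which esterifies cholesterol on lipoproteins, at 63.5 against 4.00 CPM (3.99). Abca1, which loads lipids onto apolipoproteins, stood at 110 against 21.1 CPM (2.38). Npc2, a cholesterol carrier of lysosomes, was higher by less than 2-fold (0.91).

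Cholesterol and fatty acid synthesis genes were higher almost as a block: 19 of 20 were past 2-fold, with a median log2 ratio of 1.78. Hmgcs1, the HMG-CoA synthase of the mevalonate pathway, stood at 826 against 168 CPM (2.30). The sterol-forming steps Sc4mol (2.68), Sc5d (2.59), Cyp51 (2.53) and Dhcr7 (1.74), and the earlier steps Sqle (1.54) and Fdps (1.45), were each past 2-fold. Scd2, a fatty acid desaturase, stood at 1138 against 212 CPM (2.43). Acly, which makes cytosolic acetyl-CoA, was the member that was not higher, at 37.5 against 44.5 CPM (-0.25, -0.91 to 0.36).

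Genes that burn fatty acids were also higher, 9 of 12 past 2-fold, with a median of 1.70. Cpt1a, which admits fatty acids to mitochondria, stood at 83.6 against 15.1 CPM (2.47), and the acyl-CoA dehydrogenase gene Acadl at 339 against 62.2 CPM (2.44). The trifunctional protein genes Hadha and Hadhb stayed within 2-fold, at 0.84 and 0.61.

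Sugar and glycogen genes were past 2-fold for 7 of 10 measured members, with a median of 1.38. Aldoc, the brain aldolase, had UMIs in 137 cells, ran per 10000 UMIs from 0 through a median of 10.6 to 44.5, and stood at 1233 against 87.6 CPM (log2 ratio 3.81, 3.62 to 4.01). Thinned to 1000 UMIs, Aldoc was found in 64.2% of the astrocyte-like cells, 6.30% of the others and 4 of the 421 cells with none of the 8 genes. The glycogen genes Pygb (phosphorylase, 143 against 23.4 CPM, 2.61), Ppp1r3c (a glycogen-targeting phosphatase subunit, 3.30) and Gys1 (glycogen synthase, 1.35) were each past 2-fold. The lactate dehydrogenase genes differed less, with Ldhb at 1.17 and Ldha at 0.87.

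Of 9 measured genes of serine and one-carbon metabolism 5 were at least 2-fold higher and 2 at least 2-fold lower. The serine synthesis genes Phgdh (456 against 115 CPM, 1.99), Psph (1.72) and Psat1 (1.11) were higher. The 2 lower genes, of the folate cycle, rest on few UMIs: Shmt1 (2 UMIs in the astrocyte-like cells, -2.73, interval -5.80 to -0.82) and Mthfd2 (5 UMIs, -1.63, -3.29 to -0.34). Mthfd1 (0.82) and Shmt2 (-0.53) were within 2-fold, and Aldh1l1, a folate enzyme gene that the rule used, stood at 241 against 19.99 CPM.

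Metal-binding and antioxidant genes were past 2-fold for 8 of 13 measured members, with a median of 1.52. The metallothionein genes Mt3 (1614 against 215 CPM, 2.91), Mt1 (1099 against 324, 1.76) and Mt2 (505 against 176, 1.52) were higher, as were the glutathione transferase gene Gstm1 (2.96) and the peroxidase gene Prdx6 (2.15). The superoxide dismutase gene Sod1 and the glutathione synthesis genes Gclm and Gclc did not follow, at -0.17, -0.42 and -0.28.

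Secreted proteins held some of the highest counts. Cst3, the protease inhibitor cystatin C, had UMIs in all 148 cells, from 12.8 through a median of 124 to 477 per 10000 UMIs, and stood at 12413 against 1321 CPM (3.23). Sparcl1, the synapse-promoting protein hevin, ran from 0 through 67.1 to 237 per 10000 UMIs and stood at 7493 against 724 CPM (3.37). The growth factor gene Ptn stood at 11828 against 1398 CPM (3.08), while its relative Mdk did not differ by 2-fold (299 against 324 CPM, -0.12). Of 18 measured members of the list 15 were at least 2-fold higher, with a median of 2.93. Matrix genes in it included Tnc (508 against 40.0 CPM, 3.67), Ncan (1412 against 193, 2.87), Bcan (746 against 157, 2.25) and Hapln1 (104 against 6.57, 3.98), whereas Vcan was equal within its interval (0.13, -0.16 to 0.42). Mertk, a receptor for engulfing debris and synapses, stood at 85.1 against 6.57 CPM (3.70), and the synapse-inducing thrombospondin genes Thbs1 and Thbs2 had 12 UMIs and 1 UMI in the 148 cells.

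**Figure D2:**
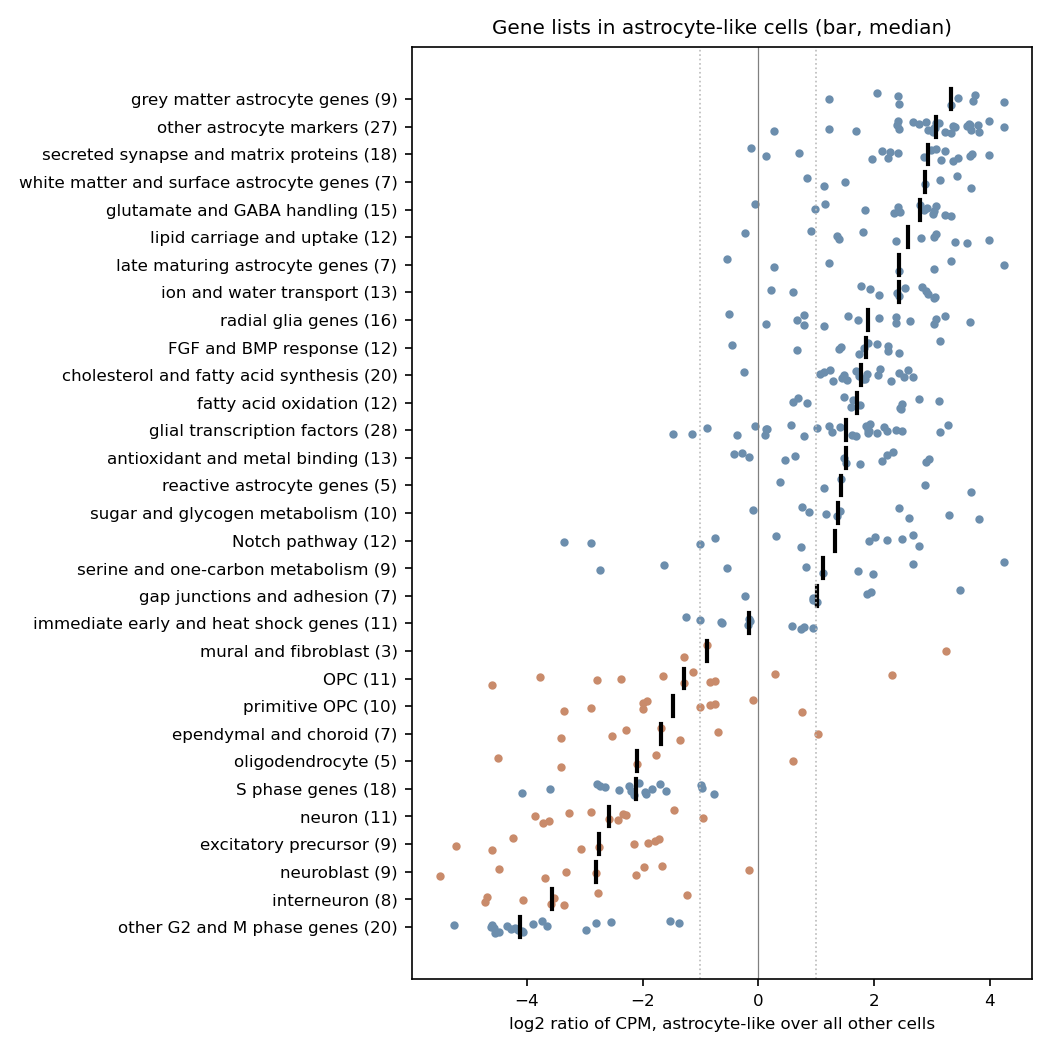
Log2 ratio of CPM, astrocyte-like over all other cells (horizontal axis), for each gene with at least 50 UMIs (points) of each gene list, with the list's median as a bar, dotted lines at 2-fold, and the number of genes in brackets. Astrocyte, secreted and glutamate lists sit to the right with medians of 3.07, 2.93 and 2.80, the 2 cell cycle lists sit to the left at -2.11 and -4.12, and most lists hold genes on more than 1 side of a dotted line.

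Transcription factors were less uniform than the transporters. Of 28 measured glial factors 18 were at least 2-fold higher, 2 at least 2-fold lower, and the median log2 ratio was 1.52. Id3, an inhibitor of basic helix-loop-helix factors that responds to BMP, stood at 1537 against 174 CPM (3.14), with a cell range of 0 through 8.74 to 74.3 per 10000 UMIs. Sox9, the glial fate factor, stood at 601 against 187 CPM (1.69), Klf15 at 86.5 against 8.85 CPM (3.29), Tsc22d4 at 1174 against 261 CPM (2.17) and Rorb at 140 against 37.7 CPM (1.89). The nuclear factor I genes, which open glial genes in radial glia, did not go with them: Nfia was within 2-fold (803 against 742 CPM, 0.11), and Nfib (835 against 1846, -1.14) and Nfix (288 against 804, -1.48) were lower. Zbtb20, an astrocyte and hippocampal factor, was also lower by less than 2-fold (799 against 1469 CPM, -0.88).

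Of 12 measured genes of the Notch pathway, 6 were at least 2-fold higher and 3 at least 2-fold lower. The receptor gene Notch2 stood at 76.4 against 11.1 CPM (2.78), the targets Hes5 at 322 against 68.8 (2.22), Hes1 at 198 against 52.5 (1.91) and Hey1 at 57.7 against 10.3 (2.49), and the feedback gene Nrarp at 146 against 22.8 (2.67). The ligand genes Dll3 (4 UMIs in the astrocyte-like cells, -3.35), Dll1 (3 UMIs, -2.90, -5.20 to -1.31) and Jag1 (9 UMIs, 12.98 against 25.98 CPM) were the 3 lower genes. The glycosyltransferase gene Lfng was higher (2.02), while the receptor gene Notch1 (196 against 118 CPM, 0.74), the nuclear effector gene Rbpj (-0.75) and the coactivator gene Maml2 (0.32) were within 2-fold. Notch3, below the UMI minimum for a comparison, had 33 UMIs in the astrocyte-like cells and 11 elsewhere.

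Genes of FGF and BMP response were past 2-fold for 10 of 12 measured members, with a median of 1.86. The receptor genes Fgfr3 (115 against 21.4 CPM, 2.43), Fgfr1 (1.74) and Bmpr1a (2.25) were higher, as were the FGF targets Etv4 (2.24), Dusp6 (1.82) and Spry2 (1.40). Smad1, which carries the BMP signal, was not (-0.45, -1.21 to 0.23).

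Radial glia genes were still present. Fabp7, the brain lipid-binding protein of radial glia and young astrocytes, had UMIs in 147 of 148 cells, ran from 0 through 151 to 389 per 10000 UMIs, and stood at 15165 against 1843 CPM (3.04). Of 16 measured radial glia genes 11 were at least 2-fold higher, with a median of 1.91, among them Ptprz1 (2381 against 388 CPM, 2.62), Hopx (107 against 20.6, 2.38) and Vim (469 against 212, 1.14). Nes, the intermediate filament of neural stem cells (190 against 110 CPM, 0.79), and Pax6 (0.14) stayed within 2-fold.

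Of 7 measured genes known to mature late in astrocytes 5 were at least 2-fold higher and none lower, with a median log2 ratio of 2.43. Several others of that list had few UMIs. Gjb6, the connexin 30 of mature astrocytes, had 16 UMIs in 10 of the 148 cells and 5 UMIs elsewhere, Aldh1a1 had 3 UMIs, and the urea transporter gene Slc14a1 had 25 UMIs in 20 cells. Slc7a10, by contrast, had 124 UMIs in 64 cells against 33 UMIs in all others (log2 ratio 4.25, 3.68 to 4.85), the largest ratio among genes with at least 100 UMIs that the naming rule admits. Of 5 measured reactive astrocyte genes 4 were at least 2-fold higher, Vim (1.14), Cd44 (2.88), Emp1 (1.43) and Gfap (3.67), each of which is also a gene of normal glia. Of the reactive genes with too few UMIs to compare, Lcn2 and C3 had 0, which allows up to 4.33 CPM, and Serpina3n had 2. The remaining measured member, Socs3, was within 2-fold at 0.38, with 10 of its 19 UMIs in 1 cell.

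The other genes with the largest ratios were Entpd2, an ATP-hydrolysing enzyme of the cell surface (120 against 7.42 CPM, 4.01), Chst1, a sulfotransferase (143 against 9.42, 3.92), Pla2g7 (1318 against 95.1, 3.79), the sialyltransferase gene St6galnac5 (193 against 14.8, 3.70), the claudin gene Cldn10 (327 against 25.98, 3.66), the protease gene Htra1 (616 against 49.1, 3.65) and the carbonic anhydrase gene Car2 (300 against 24.3, 3.63). Zfp369 (3.69) entered by 1 cell, which held 98 of its 102 UMIs. Without the highest cell of each gene, its log2 ratio was -0.96.

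Promoter letters were read for the astrocyte genes that stood high together. RefSeq promoter windows (build GRCm38.p6) matched 30 of the 38 astrocyte genes, that is 8 of the rule and 30 others. The 9-letter motif TTCNNNGAA, the palindromic core to which STAT factors bind, was searched on both strands of the 250 bases before each start. STAT3 is known to drive astrocyte genes during development. The motif was found for 6 of the 30 genes (20%), namely Slc1a3, Aldoc, Ntsr2, Pla2g7, Acsbg1 and Agt, and for 8.13% of the 27025 genes with a window. Gfap, which had 1 window, had no match. The matches of the 3 genes with the highest CPM of the 6 are shown with their flanks, 5′ to 3′ on the gene's strand, the motif in capitals. They lie upstream of the start of Slc1a3 (chr15:8710869-8710929, minus strand, motif 96 to 88 bases before the start), of Aldoc (chr11:78324048-78324108, plus strand, 124 to 116 bases before, and chr11:78324089-78324149, 83 to 75 bases before) and of Pla2g7 (chr17:43568280-43568340, plus strand, 145 to 137 bases before). A match is a run of letters, not evidence of binding.
Slc1a3: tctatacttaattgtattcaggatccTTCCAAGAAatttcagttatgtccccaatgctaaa
Aldoc, far: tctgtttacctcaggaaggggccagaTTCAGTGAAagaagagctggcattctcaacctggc
Aldoc, near: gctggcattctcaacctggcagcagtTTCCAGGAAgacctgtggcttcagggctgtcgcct
Pla2g7: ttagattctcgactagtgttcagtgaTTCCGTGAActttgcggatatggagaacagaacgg

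Cell cycle genes were low, which the rule asked of 8 of them. Among 20 other genes of G2 and M phase 20 were at least 2-fold lower, with a median log2 ratio of -4.12, and 15 of 18 S phase genes were lower, with a median of -2.11. The most extreme ratios came from 1 to 3 UMIs in the 148 cells. They belong to the mitotic genes Aspm (1 against 387 UMIs, -6.26, interval -11.57 to -3.77), Ncapg (1 against 326, -6.01), Ckap2 (3 against 666, -5.46), Cdca8 (3 against 640, -5.40), Hmmr (3 against 581, -5.26), Kifc1 (1 against 208, -5.36), Kif4 (1 against 189, -5.23) and Kif22 (1 against 184, -5.19). Outside the cell cycle, the same range held the interneuron gene Calb2 (1 against 266 UMIs, -5.72), the neuroblast factor Sox11 (1 against 228, -5.50) and Eomes, a factor of excitatory neuron precursors (3 against 565, -5.22).

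Genes of immediate response to handling or activity were not raised as a group, with 0 of 11 measured members at least 2-fold higher, 2 at least 2-fold lower, and a median of -0.16. Fos stood at 428 against 255 CPM (0.75), Egr1 at 476 against 738 CPM (-0.63) and the heat shock gene Hsp90aa1 at 1086 against 2574 CPM (-1.25).

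Markers of neuronal cell types were lower but not at 0. Neuron markers summed to 510 CPM in the astrocyte-like cells and 2708 in the others, with 13 of 14 genes detected, and 27 of 148 cells had at least 3 of them. Neuroblast markers summed to 1599 against 5620 CPM, and 82 cells had at least 3 of the 9, among which Tubb2b (816 against 908 CPM) and Sox4 (332 against 1428) are widespread. Interneuron markers summed to 156 against 1414 CPM, with Slc32a1 at 0, and excitatory precursor markers to 75.0 against 882, with Neurod6, Neurog2 and Sstr2 at 0. Cells with at least 3 of these markers numbered 2 and 1.

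OPC markers (oligodendrocyte precursor cells) summed to 1133 CPM in the astrocyte-like cells and 1081 in the others. At least 3 of them were seen in 44 of the 148 cells (29.7%) and in 26.99% of the others, and the median per cell was 10.3 against 1.63 per 10000 UMIs. That sum came mostly from Cspg5, which astrocytes share (733 against 147 CPM, 2.32), Olig1 (196 against 349) and Olig2 (115 against 193). The defining markers Pdgfra (3 UMIs, 4.33 against 105 CPM), Sox10 (4 UMIs) and Gpr17 (3 UMIs) were near 0, and C1ql1 and Neu4 were at 0. Primitive OPC markers summed to 688 against 1343 CPM, with at least 3 seen in 45 cells (30.4%) against 43.5% of the others, and Egfr at 105 against 62.2 (0.76).

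For microglia, C1qb, C1qc, Aif1, Tyrobp and Ctss were at 0, and for endothelium Cldn5, Flt1, Kdr, Tie1, Slco1a4 and Emcn, with no cell at 3 markers of either. Microglia markers summed to 30.3 against 13.4 CPM and endothelial ones to 11.5 against 9.71 CPM. Ependymal markers had Ccdc153, Tmem212, Ttr, Folr1, Kl and Clic6 at 0, and 3 cells at 3 or more. Mural and fibroblast markers summed to 319 against 97.4 CPM, and 1 cell held 45 of 45 Dcn UMIs, as 1 cell held 26 of 27 Col1a1 UMIs. In all, 41 of the 148 cells had fewer than 3 markers of every other class, and no doublet caller was run. The part of doublets, of free RNA and of shared genes in these sums was not tested. With the 107 other cells left out, 1141 of 7897 genes were at least 2-fold higher, of which 705 were among the 1069 found with all 148 cells, and the median of the other astrocyte markers was 3.17.

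Against 40 cells of the same library with at least 3 of the 8 astrocyte genes and at least 2 of the 8 cycling genes, the differences were smaller. Those cells had a median of 6308.5 UMIs, against 4011.5. Of 3409 genes 7.48% were at least 2-fold higher in the astrocyte-like cells and 4.34% at least 2-fold lower, with a median log2 ratio of 0.05. Among the other astrocyte markers 11 of 25 were at least 2-fold higher, with a median of 0.92. Slc1a3 differed by 0.79, Slc1a2 by 1.28, Apoe by 1.25 and Aldoc by 1.31. Lipid carriage genes had 6 of 10 past 2-fold (median 1.05), and transcription factors 3 of 25 (median 0.29).

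The largest ratios over the cycling cells were those of Cldn10 (327 against 65.7 CPM, 2.32), St6galnac5 (2.22), Slc7a10 (179 against 44.98, 1.99), the insulin-like growth factor binding protein gene Igfbp5 (1.98), S100a1 (1.92), the scaffold gene Dlgap1 (1.87), Clu (591 against 163, 1.86), the receptor gene Gpr37l1 (1.85) and Mxd4, an antagonist of Myc (1.82). Lrrc17 (2.08), Vps8 (1.81) and Zfp369 (4.41) also ranked high, with 209 of 405, 55 of 109 and 98 of 102 UMIs in 1 cell each. Lower in the astrocyte-like cells were 11 of 11 G2 and M phase genes (median -4.02) and 4 of 5 S phase genes (median -1.89). They included Ckap2 (3 against 97 UMIs, -6.28), Tpx2 (-4.77), Prc1 (-4.48), Cks2 (-4.43) and Cenpe (-4.02). The histone genes Hist1h2ae (-4.34), Hist1h2ab (-4.30), Hist1h2ad (-4.15), Hist1h2ai (-4.11), Hist1h2ak (-4.03), Hist1h2an (-4.02) and Hist1h2af (-4.01) are near-identical copies that reads may not tell apart, so they are uncertain as separate genes.

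A set of 126 cells with at least 4 OPC markers and fewer than 3 of the 8 astrocyte genes gave a contrast with the sister lineage of glia. Of 4505 genes 13.5% were at least 2-fold higher in the astrocyte-like cells and 10.5% at least 2-fold lower. Other astrocyte markers were at least 2-fold higher for 24 of 25 and lower for 1, with a median of 3.95. Grey matter astrocyte genes were at least 2-fold higher for 8 of 8, with a median of 4.06. That list includes Slc6a11 and Grm3, genes of the rule on which both sets were chosen, so the choice of cells favoured their ratios. Gfap (169 against 1 UMI, 7.35, interval 4.86 to 12.67), the detoxifying enzyme gene Mgst1 (133 against 1, 7.01), Slco1c1, a thyroid hormone transporter (306 against 3, 6.62), St6galnac5 (6.02), Pla2g7 (5.54), Ccdc80 (5.52), Tnc (5.41), Id1 (5.39), Htra1 (5.23), Sparcl1 (5.08), Car2 (5.07) and Emp2 (4.95) led. On the other side stood Pdgfra (-6.86), Gpr17 (-6.10) and Sox10 (-5.15), which helped to choose those cells. Others there were Bcas1 (3 against 321 UMIs, -6.79), Mbp (-5.56), Pllp (-5.50), Cntn1 (-5.11), Dll3 (-4.63), Scn3a (-4.38), Myt1 (-4.37) and Gap43 (-4.02).

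**Figure D3:**
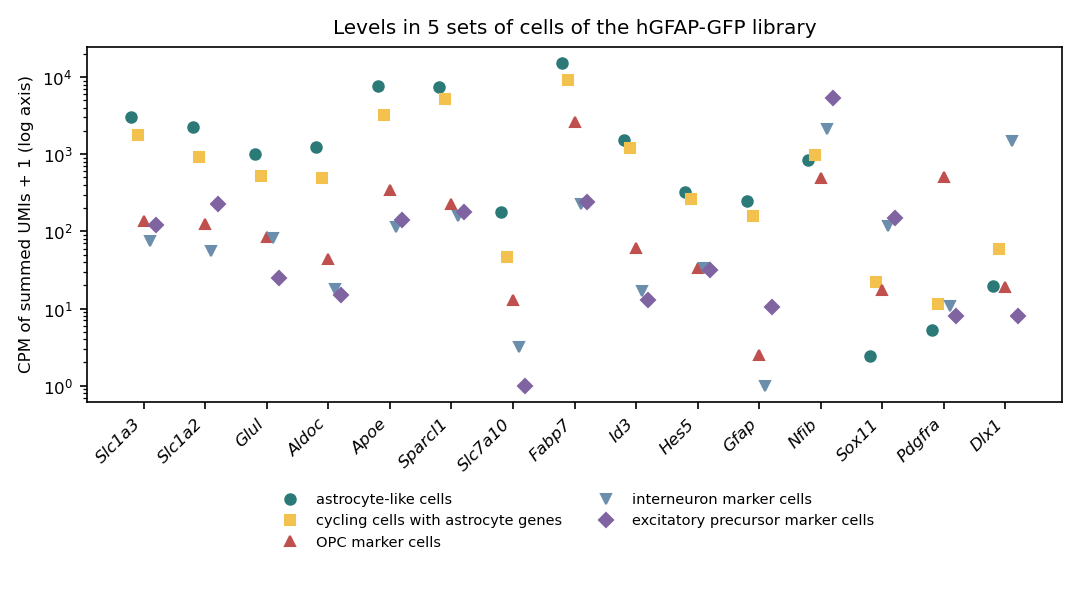
CPM of summed UMIs plus 1 on a log axis for 15 genes in 5 sets of cells of the hGFAP-GFP library, 1 symbol per set. Slc1a3, Apoe and Fabp7 are highest in the astrocyte-like cells (3057, 7732 and 15165 CPM) with the cycling cells of astrocyte genes next, and Pdgfra stands at 4.33 CPM in them.

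Among the 148 cells, variance beyond that of counting was largest in a few genes. The variance of each gene over cells was divided by the variance that counting alone gives at each cell's depth. At a like relative spread between cells, this ratio is larger for genes with more UMIs, such as Malat1 (11955 UMIs) and Fabp7 (10516). A larger ratio is therefore not by itself a larger relative difference between cells. Over 1264 genes with at least 100 UMIs in the members the median ratio was 1.50, and over 22 other astrocyte markers it was 3.14. The nuclear RNA Malat1 (28.6), Cst3 (27.9), Sparcl1 (20.3), Fabp7 (16.96), Ptn (16.3), Apoe (14.3), Gfap (12.3), Egr1 (8.15) and Id3 (8.08) were among the 12 largest of the genes that the naming rule admits. With the highest cell of each left out they stood at 26.9, 27.3, 19.8, 15.8, 15.8, 14.2, 12.4, 6.86 and 7.30. The ratio rests on single cells for Lrrc17 (91.6, and 25.4 without its highest cell), Zfp369 (31.7 and 1.28) and Vps8 (22.3 and 3.91). By list, and not matched for level, lipid carriage genes had a median ratio of 4.13 over 7 genes. Ion and water transport genes had 1.53 over 7 and serine genes 1.50 over 4.

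**Figure D4:**
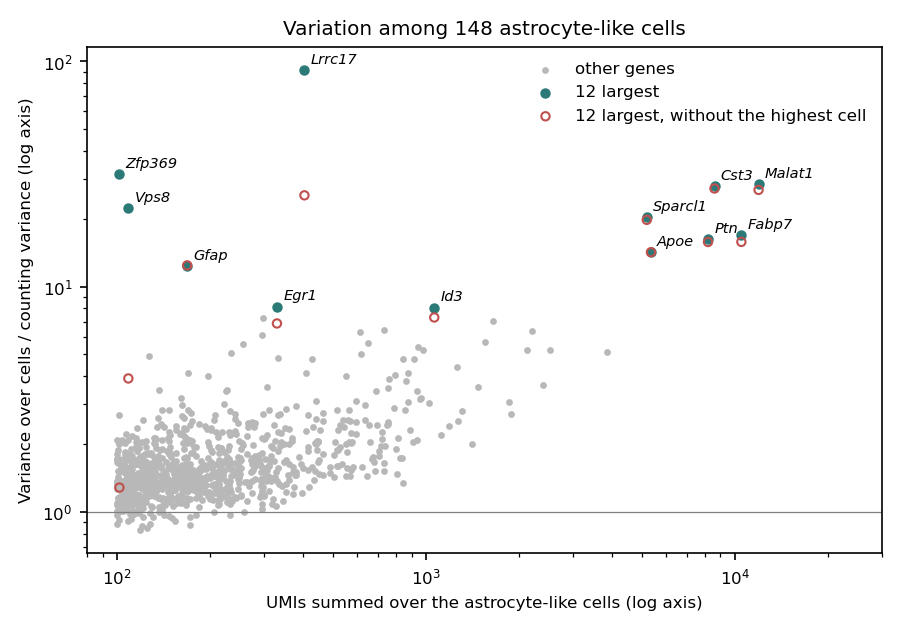
Variance over the 148 astrocyte-like cells divided by counting variance (log axis) against summed UMIs (log axis), for each gene with at least 100 UMIs that the naming rule admits, with the 12 largest named and open circles for the same genes without their highest cell. Open and filled symbols lie close for Cst3, Fabp7, Apoe and Gfap (12.3 and 12.4) and far apart for Zfp369 (31.7 and 1.28).

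Gfap, the intermediate filament whose human promoter names the strain, was found in a minority. It had 169 UMIs in 34 of the 148 cells (23.1% of them in 1 cell), and 0 UMIs in the other 114. At 1000 UMIs per cell it was detected in 11.5% of the astrocyte-like cells, 0.750% of the others and 0 of 421 cells with none of the 8 genes, which allows a share of up to 0.872% for cells with a UMI at that depth. Unthinned, those 421 cells held Gfap at 2.06 CPM. The cells with and without Gfap had like depths (medians 3994.5 and 4034.5 UMIs). Of 2524 genes 1.55% were at least 2-fold higher in the cells with Gfap and 3.84% at least 2-fold lower. Cells with Gfap had more Fxyd6, a regulator of the sodium pump (774 against 213 CPM, log2 ratio 1.86, 1.49 to 2.24), Id4 (354 against 106, 1.73, 1.18 to 2.29), Fos (785.5 against 315, 1.32), Ctnnbip1, an inhibitor of beta-catenin (426 against 175, 1.29), Jun (750 against 323, 1.22), Clu (1013 against 458, 1.15) and Id1 (299.8 against 152, 0.98). Ctnnbip1 had 17 of 71 UMIs and Ywhah (1.20) had 21 of 43 UMIs in 1 cell, and Zfp369 (6.70) had 98 of 99.

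Cells without Gfap had more Igfbp2 (1105 against 414 CPM, -1.42, -1.80 to -1.06), the adhesion gene Chl1 (211 against 65.96, -1.68), the receptor genes Gria2 (570 against 222, -1.36) and Grm5 (279 against 126, -1.15), and Lrrc17 (-2.15), whose highest cell holds 209 of 378 UMIs there. Apart from Gfap itself, none of 5 measured genes of white matter and surface astrocytes was past 2-fold in either direction, and of 8 grey matter genes 1 was at least 2-fold lower. Id3 was at 2225 against 1320 CPM in cells with and without Gfap (0.75, 0.57 to 0.94) and Vim at 582 against 433 (0.43, 0.07 to 0.77). Of the grey matter genes Mfge8 (588 against 875, -0.57), Slc7a10 (120 against 197, -0.72), Kcnj10 (192 against 289, -0.59) and Chrdl1 (41.97 against 103, -1.29) were lower, while Slc1a2 was not (2506 against 2166, 0.21). Cells were split here by a gene with few UMIs, so a cell at 0 may hold undetected Gfap RNA.

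The number of the 8 genes seen in a cell also went with other genes, and with depth. The 97 cells with 5 to 8 genes had a median of 4438 UMIs and the 51 with 3 or 4 genes had 3572. Of 2524 genes 5.43% were at least 2-fold higher in the former and 1.98% at least 2-fold lower. Higher were Btbd17 (287 against 48.5 CPM, 2.57), Gpr37l1 (195 against 43.7, 2.16), Chl1 (2.09), Igfbp2 (1196 against 329.9, 1.86), Grm5 (1.73), Nfkbia (1.70), Il18 (1.68), Htra1 (774 against 243, 1.67), Hbegf (1.65), Acsbg1 (1.58) and Gatm (1.52). Higher in cells with 3 or 4 genes were Igfbp5 (148 against 475.5 CPM, -1.69), Tmsb10 (330 against 829.7, -1.33), Zbtb20 (611.5 against 1242, -1.02) and the Wnt inhibitor gene Sfrp1 (269 against 505, -0.91). Among glutamate and GABA genes 6 of 11 were past 2-fold in the cells with more of the 8 genes, with a median of 1.15.

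**Figure D5:**
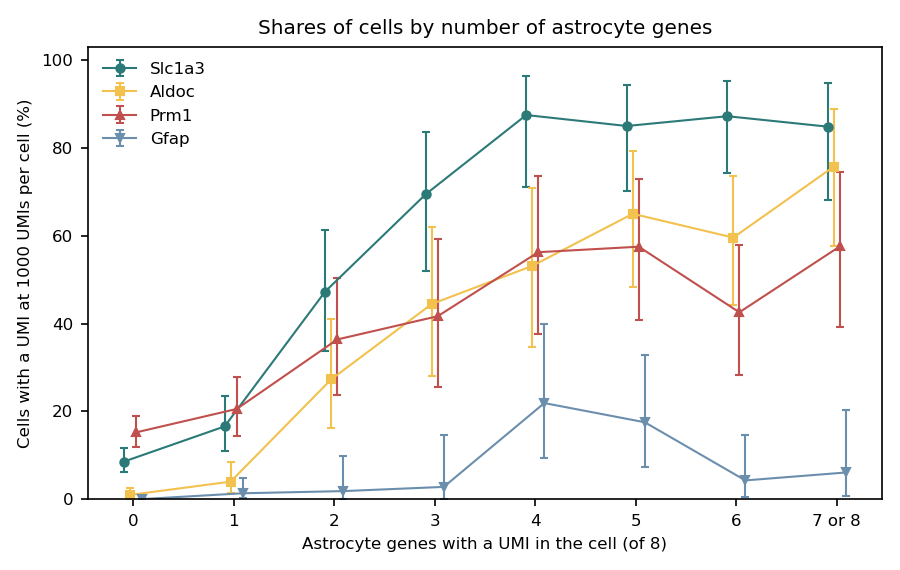
Share of cells with at least 1 UMI after thinning to 1000 UMIs per cell (vertical axis, percent, with exact binomial intervals as bars) by how many of the 8 astrocyte genes were found in the cell before thinning, cycling cells included. Slc1a3 climbs from 8.55% at 0 genes to 87.5% at 4 and stays near it, Aldoc reaches 75.8% at 7 or 8, and Gfap peaks at 21.9% at 4 genes.

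Detection of Slc1a3 levelled off as the count of the 8 genes grew, from 69.4% of cells at 3 genes to 87.5% at 4 and 84.8% at 7 or 8. Aldoc went on, from 44.4% at 3 genes to 75.8% at 7 or 8. Gfap was seen in 21.9% of cells at 4 genes, 17.5% at 5, 4.26% at 6 and 6.06% at 7 or 8, with wide intervals (9.28 to 39.97% at 4 and 0.520 to 14.54% at 6).

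Prm1, the protamine gene of sperm chromatin, was counted in these cells and is reported as a gene chosen after its values were seen. It had 616 UMIs in 112 of the 148 cells, 888 CPM (820 to 961), against 346 CPM in the other cells (log2 ratio 1.36, 1.22 to 1.50). Its level was 1093 CPM in the cycling cells with astrocyte genes, 411 in the OPC marker cells, 139 in 210 interneuron marker cells and 23.6 in 73 excitatory precursor marker cells. Thinned to 1000 UMIs, it was found in 48.6% of the astrocyte-like cells, 20.7% of the others and 15.2% of cells with none of the 8 genes. By number of genes, cycling cells included, it was found in 36.4% at 2, 41.7% at 3 and 56.3% at 4. The share did not climb steadily beyond that, at 57.5% at 5, 42.6% at 6 and 57.6% at 7 or 8. In the C1 captures, Prm1 was above 0 in 44 of 49 hGFAP-GFP cells at P3 (mean 2235 TPM, transcript counts scaled for gene length and library size) and in 35 of 61 at P4/P6 (mean 298 TPM). It was listed at 0 in 60 of 60 and 53 of 53 PDGFRa-GFP cells, and it had 1 UMI in 6054 cells of the dpi 35 tumour. Segments of protamine genes are used as the tail of some transgenes. The labels do not describe this one, and the source of these reads was not tested.

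The same rule picked few cells in the PDGFRa-GFP Drop-seq library, 20 of 3184 (0.628%, 0.384 to 0.968%). It picked 3 of 4955 at dpi 25 and 58 of 6054 at dpi 35 (0.958%). In the hGFAP-GFP C1 groups it picked 9 of 49 cells at P3 and 2 of 61 at P4/P6. The P3 share, 18.4%, was like the 18.2% of the library described here. In the PDGFRa-GFP C1 groups it picked 1 of 60 and 1 of 53. The libraries differ in strain, age, depth and method, which cannot be told apart. In the 20 PDGFRa-GFP cells, against that library's other cells, 17.7% of 10257 genes were at least 2-fold higher and 11.8% at least 2-fold lower. There 1 UMI is worth 15.98 CPM, and 810 of the 1813 higher genes had 3 UMIs or fewer in the 20 cells, while 2485 genes at 0 in them had no ratio. Other astrocyte markers there were higher for 22 of 24, with a median of 4.56.

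Set side by side, the 148 hGFAP-GFP cells at P5-6 and the 20 PDGFRa-GFP cells at P1-3 differed by less than 2-fold in most genes. The astrocyte markers were no exception. Of 2741 genes 14.8% were at least 2-fold higher in the hGFAP-GFP cells and 4.63% at least 2-fold lower, and of 23 other astrocyte markers 1 was higher and 3 were lower, with a median of -0.15. Slc1a3 stood at 3057 and 3164 CPM (log2 ratio -0.05, -0.26 to 0.17), Glul at 998 and 1135 (-0.19), Id3 at 1537 and 1614 (-0.07) and Sparcl1 at 7493 and 8311 (-0.15). Slc1a2 was higher at P5-6 (2248 and 1215 CPM, 0.89, 0.56 to 1.24), and Apoe was lower (7732 and 16493, -1.09, -1.19 to -0.995), as were Bcan (-1.11), Fos (-1.16) and Gfap (244 and 479, -0.98), the last with 22 of 30 UMIs in 1 PDGFRa-GFP cell. Ptgds (11.5 and 15918 CPM) and Nnat (-2.47) also rested on 1 cell, with 995 of 996 and 65 of 116 UMIs. Lrrc17 had 405 UMIs in the hGFAP-GFP cells, 209 of them in 1 cell, and 0 in the 20 others. Gnao1 had 380 and 6 (2.51) and Tnfrsf19 171 and 3 (2.36).

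In the dpi 35 tumour the 58 cells that met the rule had 27 of 30 other astrocyte markers at least 2-fold higher than that library's other cells (median 2.89), where 19.1% of 13571 genes were higher and 13.4% lower, with 418 of the 2587 higher genes at 3 UMIs or fewer in the 58 cells. In those cells 9 of 10 ependymal and choroid markers were also at least 2-fold higher (median 4.84), whereas in the astrocyte-like cells of the cortex 6 of 11 such markers had 0 UMIs.

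In the P3 C1 capture of the hGFAP-GFP strain, the 9 cells that met the rule were compared with the other 40. Of those 40, 26 also had enough astrocyte genes for the rule and failed it only on cycling genes. The contrast is thus mostly between cells with astrocyte genes. Of 11503 genes 19.5% were at least 2-fold higher in the 9 cells than in the other 40 and 51.5% lower. The median log2 ratio of all these genes was -1.08. Of 29 other astrocyte markers 6 were higher and 3 lower, with a median of 0.40, above that of all genes. Slc1a3 averaged 3797 TPM in the 9 cells and 3620 in the 40, and it was above 0 in 9 and 39 of them. All 10 measured oligodendrocyte markers were higher (median log2 ratio 6.19), but 7 of the 10 were above 0 in only 1 of the 9 cells, and Mbp in 2. This contrast cannot show whether the 9 cells are astrocytes, so they are given by the rule and not by a cell type name.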

How the data were processed

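The hGFAP-GFP Drop-seq values were deposited as a signal per gene and cell, UMI counts divided by the cell's total and scaled to 10000, per the values; STAR and mm10 are named per the submitters' processing notes. Of the deposited values 100% came out as whole UMIs within 0.1 after rescaling by the smallest step of each cell, and these UMIs were used throughout. The dpi 35 table was deposited as counts (Cell Ranger), and the C1 tables as TPM by the authors (RSEM, mm10), per the submitters' processing notes; each C1 table was compared only within itself, as log2(mean TPM + 1).

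UMIs were summed over the cells of each set and given as CPM, with exact Poisson, conditional and binomial intervals at 95.0% (Python 3.11.15, numpy 2.4.6, scipy 1.17.1). A gene was compared with at least 50 UMIs over both sets. Where the sets differ in total UMIs, genes high in the larger set pass that minimum more easily. A count of 0 in a ratio was replaced by 3 UMIs, a bound, and no ratio was given where that bound pointed the wrong way. Past the gene lists, the 12 largest and 12 smallest ratios were named among genes that reached 100 UMIs in all and, in 1 of the sets, 50 CPM, without the 16 genes of the rule, predicted, mitochondrial, ribosomal, haemoglobin and sex-linked RNA genes. Shares of cells were compared after thinning to 1000 UMIs, which left no cell of this library out. Drop-seq UMIs were not divided by gene length, so levels are compared within a gene. Cells were not clustered and no doublet caller was run. The interval code was tested on simulated data. The members and gene lists were chosen with earlier results of these data known. Some genes that the naming rule admits are not reported here.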

Additional observations from a re-analysis of the deposited data

How the results depend on the processing

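The number of astrocyte-like cells, 148 as given, was 184 with at least 2 of the 8 astrocyte genes, 121 with at least 4, 100 with no cycling gene, 188 with no condition on cycling genes and 87 with each cell thinned to 1000 UMIs first. Thinning before the rule removes UMIs, so fewer cells reach 3 genes. Genes at least 2-fold higher than in all other cells numbered 1069 of 8541, against 693 of 5966 with a filter of 100 summed UMIs, 1686 of 11504 with 20 and 333 of 2897 with values from thinned cells. Genes at least 2-fold lower numbered 1326, against 862 with the filter of 100 and 511 with thinned cells. Against the cycling cells with astrocyte genes, 255 were higher, or 109 with the filter of 100, 757 with 20 and 34 of 679 with thinned cells, and 148 were lower, or 78, 404 and 36. These filters and thinning change how many genes are compared. The median log2 ratio of the other astrocyte markers, 3.07, was 2.50 with no cycling gene allowed and 2.68 after thinning before the rule. It was 2.99 to 3.43 under the other alternatives. Where the rule itself was changed, cells it no longer picked were counted among the other cells, and newly picked cells left them. The cause of these shifts was not tested. Leaving out the highest member cell of each gene was added after seeing the data, and gave 940 higher and 1690 lower genes. A cell was left out on the astrocyte-like side only, which lowers the ratio of almost any gene, so the direction of this shift was fixed in advance. The same omission reversed Zfp369, to -0.96 against all other cells and -0.23 against the cycling cells. Leaving out members with at least 3 markers of another class reversed Cdh20 (-0.81), a gene with few UMIs, moved 104 other named values and kept 138 within their interval; the cause was not tested. It gave no ratio for Mthfd2 and Cdc6. Of the values for named genes, 3009 kept within their interval, 561 moved and 3 reversed.

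No paired analysis was possible because each Drop-seq group is 1 library and no result comes from a test over samples. Leaving out a replicate needs more than 1 library and was not run. Depth limits what is said of genes with 1 to 3 UMIs in the 148 cells, and intervals do not cover differences between animals.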
